A study of Mus musculus with 2 samples.

Results

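The genes described here are 7 that encode hallmark products of megakaryocytes and platelets, namely Itga2b, Itgb3, Gp1ba, Gp1bb, Gp9, Vwf and Pf4, out of 21755 protein-coding genes on chromosomes 1 to 19 and X. They were chosen by name and not by any measured value, though with earlier results of these data known. The locus of each gene was its body in the GENCODE vM21 annotation of mm10 (GRCm38) with 10 kb added on either side. A peak belonged to a locus if its midpoint lay there, and was sorted as lying at the gene's own promoter (within 1 kb of an annotated start site), at a promoter of some other gene, or as distal. Only 1 of the 7 genes, Itgb3, had a peak at its promoter in both libraries. Library by library, 1 of the 7 had a promoter peak in replicate 1 and 2 had one in replicate 2. Over all genes 53.9% in replicate 1 and 57.4% in replicate 2 had one. Over genes with CpG-poor promoters, to which 5 of the 7 but not Itgb3 belong, the shares were 23.1% and 27.4%. All peaks of the 7 loci had a median percentile by signal of 57.0 in replicate 1 and 49.3 in replicate 2, and the strongest distal peaks inside Itga2b, Itgb3 and Vwf lay at 77.2 to 93.0.

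Megakaryocytes are the large polyploid cells that shed platelets, and in the mouse they mature in the spleen as well as in the bone marrow. Platelets stick to a damaged vessel wall when the glycoprotein Ib-IX receptor catches von Willebrand factor, and they bind to each other when the integrin made of the Itga2b and Itgb3 chains catches fibrinogen. Their genes are known targets of GATA, ETS, RUNX and NF-E2 family transcription factors.

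The assay was DNase-seq, in which the nuclease DNase I cuts accessible DNA, on whole spleen of female B6CASTF1/J mice, hybrids between the C57BL/6 and CAST strains, at 36 days of age, with no treatment given in the labels. The 2 libraries are biological replicates 1 and 2 of 1 group. They are described as coming from differently numbered females but carry the same donor entry, so their spread may in part be technical. There is no second group, and hence no test between conditions.

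Replicate 1 had 42454 peaks and 133725 footprints, and replicate 2 had 60683 peaks and 246700 footprints. A second, more permissive peak list of each library held 61285 and 89476 peaks, and is called the longer list. The total read depth is unknown, and the signal of a peak is the authors' own value on a scale that is not given in the sources used here, so signal was read only as a rank within 1 library. The percentile of a peak is the share of peaks of the same list that it exceeded in signal. Of all peaks, 93.8% of those in replicate 1 overlapped a peak of replicate 2 and 65.7% of those in replicate 2 overlapped a peak of replicate 1. In bulk tissue, fewer cells with an open site and a less open site in each cell cannot be told apart.

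The DNA of the strongest distal region of each locus that had one in both libraries is shown first, because the strongest peak of the Itga2b, Itgb3 and Vwf loci was distal in both libraries. Capitals mark bases in a footprint, a short stretch protected from cutting inside open chromatin, of either library. Letters are the plus strand of GRCm38.p6, the C57BL/6J reference, from which the CAST allele of the hybrid may differ. The Itga2b region is chr11:102467121-102467340 in intron 4. The Itgb3 stretch, chr11:104637091-104637390, holds the central 300 bases of a 320-base region that includes 134 bases of exons and has its midpoint in intron 5. The Gp1ba region is chr11:70650441-70650691, inside an intron of the neighbouring gene Rnf167. The Gp1bb region is chr16:18617761-18617940, intergenic, and the Vwf region is chr6:125573301-125573520 in intron 6.
Itga2b: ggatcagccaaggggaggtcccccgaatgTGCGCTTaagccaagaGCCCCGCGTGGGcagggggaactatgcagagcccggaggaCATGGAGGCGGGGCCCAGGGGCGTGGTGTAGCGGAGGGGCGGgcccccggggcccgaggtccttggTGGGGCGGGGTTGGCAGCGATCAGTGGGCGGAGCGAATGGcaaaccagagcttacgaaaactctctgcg
Itgb3: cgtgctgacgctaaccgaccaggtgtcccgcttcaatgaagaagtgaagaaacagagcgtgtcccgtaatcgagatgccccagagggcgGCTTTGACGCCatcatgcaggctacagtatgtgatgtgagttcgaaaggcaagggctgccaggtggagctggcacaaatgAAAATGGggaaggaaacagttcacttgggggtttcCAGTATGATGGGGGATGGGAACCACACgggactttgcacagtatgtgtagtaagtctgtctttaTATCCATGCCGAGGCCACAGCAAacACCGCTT
Gp1ba: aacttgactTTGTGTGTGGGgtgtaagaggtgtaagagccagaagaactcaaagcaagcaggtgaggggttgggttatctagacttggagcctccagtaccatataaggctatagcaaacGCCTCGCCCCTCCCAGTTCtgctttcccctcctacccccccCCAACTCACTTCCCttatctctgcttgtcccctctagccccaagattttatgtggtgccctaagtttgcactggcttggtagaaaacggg
Gp1bb: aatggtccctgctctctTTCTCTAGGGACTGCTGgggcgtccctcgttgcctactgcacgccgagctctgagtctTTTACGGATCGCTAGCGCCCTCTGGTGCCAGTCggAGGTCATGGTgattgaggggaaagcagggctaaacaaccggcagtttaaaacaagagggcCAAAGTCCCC
Vwf: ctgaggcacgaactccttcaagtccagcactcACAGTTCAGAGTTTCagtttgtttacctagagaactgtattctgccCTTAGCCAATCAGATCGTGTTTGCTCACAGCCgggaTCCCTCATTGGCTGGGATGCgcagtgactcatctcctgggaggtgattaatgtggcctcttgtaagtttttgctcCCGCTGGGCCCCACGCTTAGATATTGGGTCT

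Own promoters had a peak at 1 of the 7 genes in replicate 1 and at 2 in replicate 2. The mean share was 21.4% ± 10.1 (SD, n = 2). Over all 21755 genes the same count gave 53.9% in replicate 1 and 57.4% in replicate 2. Genes were also split at the median ratio of observed to expected CpG within 500 bases of the start sites, which was 0.61, since CpG-poor promoters had fewer peaks. Of the 7 genes, 5 fell into the CpG-poor class, with Itgb3 at 0.691 and Gp1bb at 0.662 outside it. In that class of 10860 genes, replicate 1 had a peak at 23.1% of promoters and replicate 2 at 27.4%, and of the 5 genes 0 and 1 had one. With 5 genes, counts of 0 and 1 are too few to set apart from those shares. With the longer lists the count over the 7 genes was 1 in replicate 1, where 57.9% of all genes had a promoter peak, and 4 in replicate 2, where 62.4% had one.

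In the cut rate track, which lists stretches where cutting exceeded the background at a false discovery rate (FDR) of at most 0.05, Itgb3 was the 1 gene of 7 with a listed stretch within 1 kb of a start site in replicate 1. In replicate 2 there were 4, namely Itgb3, Itga2b, Gp9 and Pf4. The background was 58.9% of all genes in replicate 1 and 63.5% in replicate 2. The promoters of Gp1ba, Gp1bb and Vwf had 0 listed bases in either library.

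The 7 loci held 16 peaks in replicate 1 and 31 in replicate 2, or 23.5 ± 10.6 on average (SD, n = 2). Of these, 12 and 26 were distal, 3 in each library lay at promoters of other genes, and 1 and 2 lay at the genes' own promoters. At least 1 locus peak was present for 5 of 7 genes in replicate 1 and for 6 of 7 in replicate 2, against 70.4% and 73.4% of all genes. The median peak density per 10 kb was 0.485 and 0.849 over the 7 genes, and 0.345 and 0.438 over all genes. After peaks that overlapped between libraries were merged, 32 regions remained, of which 15 were in both libraries, 1 was in replicate 1 alone and 16 were in replicate 2 alone. Shared locus peaks were thus 15 of 16 in replicate 1 and 15 of 31 in replicate 2. The shares were 93.8% and 65.7% over all peaks, and 93.6% and 57.7% over all distal peaks. The plot of signal along the 7 loci shows how far most of these regions lay from the start sites.

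**Figure D1:**
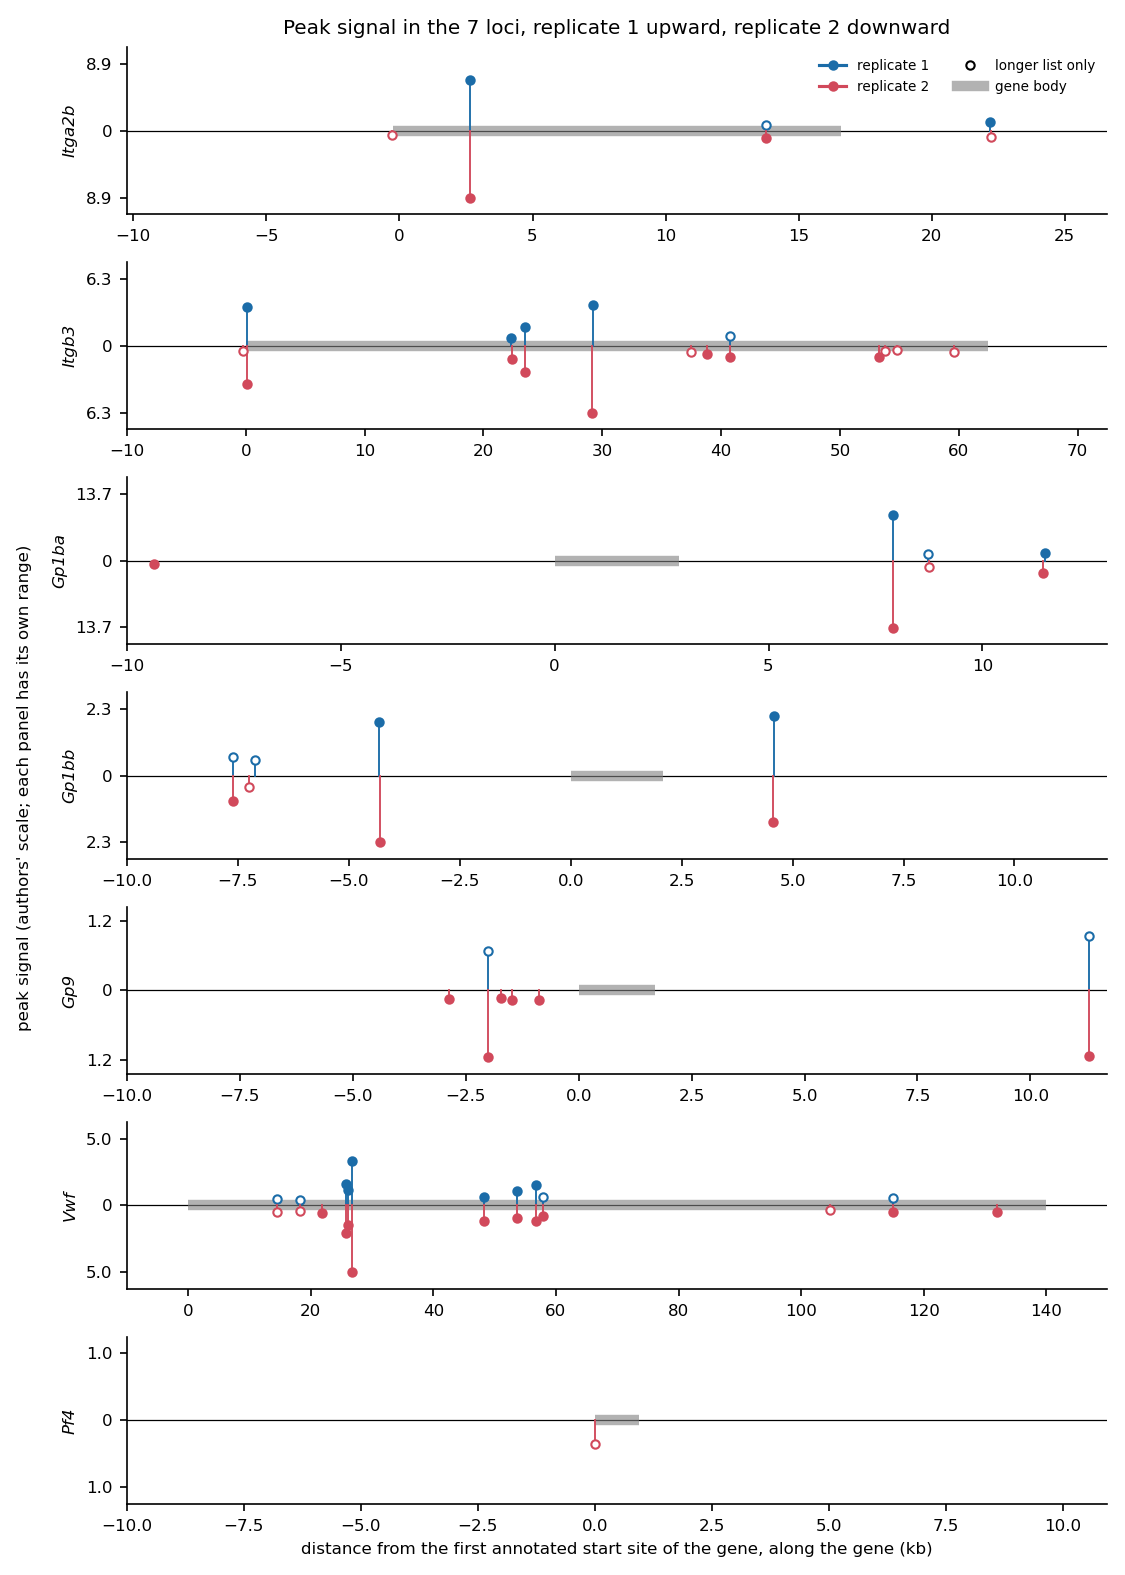
Peak signal (authors' scale, with its own range in each panel) against the distance in kb from the first annotated start site of each gene, along the gene, with replicate 1 drawn upward and replicate 2 downward. Filled points are peaks of the shorter list, open points are in the longer list alone, and grey bars are gene bodies; the tallest peaks of Itga2b, Itgb3 and Vwf lie inside the gene, Itgb3 has a further pair at its start, and Pf4 has 1 weak open point in replicate 2.

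The fibrinogen receptor is the pair of Itga2b and Itgb3 chains, also called CD41 and CD61. Itga2b (chr11:102453297-102470122, minus strand, start site at 102469883) is also used by haematopoietic progenitors and mast cells. Its strongest peak was the intron 4 region shown above, 2652 bases downstream of the start site, with a signal of 6.72 in replicate 1 and 8.87 in replicate 2. These values put it at the percentiles 90.3 and 93.0, and the smallest FDR in it was 1.75e-66 and 1.52e-101. The region was 68.6% G or C and held 17 CpG dinucleotides. The Itga2b promoter had no peak in either shorter list. In the longer list of replicate 2 a weak peak with a signal of 0.528 and a smallest FDR of 0.00242 had its midpoint 278 bases upstream of the start, and replicate 1 had 0 listed bases within 1 kb. This peak, chr11:102470076-102470245, covered the upstream end of the annotated gene body at 102470122, which lies upstream of the start site used. The intronic site was thus prominent in both libraries while the promoter was at the edge of detection in 1 of them.

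Farther along Itga2b, a region in intron 27 had a signal of 0.907 in replicate 2, at the percentile 39.9, and appeared in replicate 1 only in the longer list, at 0.802. The last region of this locus lay at the promoter of the neighbour Fam171a2, with a signal of 1.13 in replicate 1 and, in the longer list only, of 0.82 in replicate 2.

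Itgb3 (chr11:104608000-104670476, plus strand) encodes the beta chain, which also pairs with the alpha V integrin in endothelial cells and osteoclasts. Its promoter peak, chr11:104608041-104608220 with 124 of its 180 bases in the first exon, had a signal of 3.68 in replicate 1 and 3.61 in replicate 2. The percentiles were 79.2 and 81.0, and the smallest FDR was 2.21e-26 and 2.61e-26. It held 5 footprints in replicate 1 and 4 in replicate 2.

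The strongest Itgb3 region lay 29241 bases downstream of the start, at the junction of an exon and intron 5, with signals of 3.82 and 6.30 at the percentiles 79.9 and 89.1. A pair of regions in intron 2 was also present in both libraries. One, 22346 bases from the start, had signals of 0.728 and 1.28, and the other, 23511 bases from the start, had signals of 1.75 and 2.53. Their percentiles differed more between libraries, at 17.1 and 54.8 for the former and 58.7 and 74.3 for the latter. A further 3 intronic regions were in the shorter list of replicate 2 alone, with signals from 0.800 to 1.09, and one of these, 40721 bases from the start, was in the longer list of replicate 1 at 0.939. The longer list of replicate 2 added 5 weaker Itgb3 regions, with signals from 0.379 to 0.574, of which 1 lay 219 bases upstream of the start. In all, the Itgb3 locus held 4 peaks in replicate 1 and 7 in replicate 2, and all 4 of the former were shared.

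The chains of the glycoprotein Ib-IX receptor are encoded by the short genes Gp1ba, Gp1bb and Gp9, and none of these had a promoter peak in replicate 1. Gp1ba (chr11:70639122-70642036, plus strand) encodes the chain that binds von Willebrand factor. Its promoter had no peak in any of the 4 lists. The strongest peak of all 7 loci lay 7897 bases downstream of its start, chr11:70646921-70647160, with signals of 9.28 and 13.7 at the percentiles 95.5 and 97.0. That position is within 1 kb of the starts of Slc25a11, a mitochondrial carrier gene, and Rnf167, a ubiquitin ligase gene, which are transcribed in many tissues, so this peak was counted at the promoters of other genes. The distal region in the Rnf167 intron had signals of 1.52 and 2.48, at the percentiles 53.4 and 73.9. The longer lists added a region near the Rnf167 start, at 1.33 and 1.32. A region 9352 bases upstream of Gp1ba, with a signal of 0.794, was present in replicate 2 alone.

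Gp1bb (chr16:18620317-18622403, minus strand) encodes the chain linked to Gp1ba by disulphide bonds, and its annotated span overlaps that of the septin gene Sept5. The Gp1bb promoter, though not CpG-poor, had no peak in any list. The intergenic region shown above, whose midpoint was 3789 bases from the nearest Gp1bb start, had signals of 2.07 and 1.59, at the percentiles 64.5 and 62.1. The other region in both libraries lay 4318 bases upstream of the gene, in a Sept5 intron near the starts of Sept5 and Gm49601, with signals of 1.86 and 2.31. Another region, at a Sept5 start, had a signal of 0.871 in replicate 2 and, in the longer list, of 0.644 in replicate 1. The longer lists added a region within Sept5, at 0.549 and 0.395.

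Gp9 (chr6:87778072-87779768, plus strand) encodes the small chain that completes the complex. Its locus held 0 peaks in replicate 1 and 6 in replicate 2. A pair of these had signals near the median of the library, 1.15 at a site 2011 bases upstream and 1.12 at a site 11303 bases downstream that lies in exons of Rab43 and Gm45140. Both sites were in the longer list of replicate 1, at 0.686 and 0.939. The other 4, which include the 1 counted as the Gp9 promoter peak, had signals from 0.133 to 0.164.

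These 4 peaks were clustered from 870 to 2865 bases upstream of the Gp9 start and were among the weakest of the library, since 203 of its 60683 peaks, or 0.335%, had a signal of at most 0.164. Yet the smallest FDR in them ran from 6.45e-09 to 6.82e-11, whereas the median was 2.92e-06 over those 203 peaks and 1.86e-05 over the 5209 peaks of the library with signals of 0.5 to 0.6. By signal these peaks stood near the bottom of the list, and by FDR they were stronger than the median of both sets. The promoter peak of Gp9 was 42 bases wide, lay 870 bases upstream of the start in an intron of the long noncoding RNA gene Gm43904, and is lost with a promoter of 500 bases to either side.

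Vwf (chr6:125546774-125686679, plus strand, 3 start sites) encodes von Willebrand factor, which endothelial cells make as well as megakaryocytes. It had no promoter peak in any list. Its locus held 6 peaks in replicate 1 and 10 in replicate 2, all distal and all inside the gene body, and the 6 of replicate 1 were all shared. A cluster of 3 regions in intron 6 lay 19488, 19908 and 20448 bases from the nearest start. The nearest had signals of 1.59 and 2.07, the middle one of 1.14 and 1.45, and the farthest, which is shown above, of 3.33 and 5.01. The farthest was the strongest of the locus in both libraries, at the percentiles 77.2 and 86.1, with a smallest FDR of 9.49e-49 and 1.58e-72.

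The other Vwf regions of both libraries were weaker. One in intron 10, of which 73.0% of the bases are masked as repeats in RefSeq, had signals of 0.644 and 1.18, one in intron 12 of 1.09 and 0.953, and one with 196 of its 220 bases in an exon of 1.54 and 1.13. A further 4 regions were in the shorter list of replicate 2 alone, at 0.472 to 0.764, and the longer lists added 3 more of 0.318 to 0.506. The exonic region and the intergenic Gp1bb region were the only ones of the 15 in both libraries with the higher percentile in replicate 1. The lists differ in length, 42454 and 60683 peaks, so a difference in percentile between libraries cannot be read as a difference in openness. The Itgb3 promoter peak, for example, ranked 8812 in replicate 1 and 11507 in replicate 2, while its percentile was higher in replicate 2.

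Because Vwf is shared with endothelium, the endothelial marker genes were read beside it. Of 6, Kdr and Pecam1 had a promoter peak in both libraries, Tie1 had one in replicate 2 alone, and Cdh5, Emcn and Tek had none in the shorter lists. The longer list of replicate 2 also held one for Cdh5. The promoter signals were 0.538 and 0.574 for Kdr, a growth factor receptor gene, and 1.58 and 3.24 for Pecam1, whose product is also present on platelets and leukocytes. The part of endothelial cells in the Vwf peaks was not tested.

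Pf4 (chr5:90772435-90773383, plus strand) encodes platelet factor 4, a chemokine stored in alpha granules. Its locus held 0 peaks in both shorter lists and in the longer list of replicate 1. The longer list of replicate 2 held 1, chr5:90772381-90772518, which spans the start site, with a signal of 0.359, a smallest FDR of 0.0105 and 2 footprints. The neighbouring gene Ppbp, which encodes another platelet chemokine, had no promoter peak in any list.

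**Figure D2:**
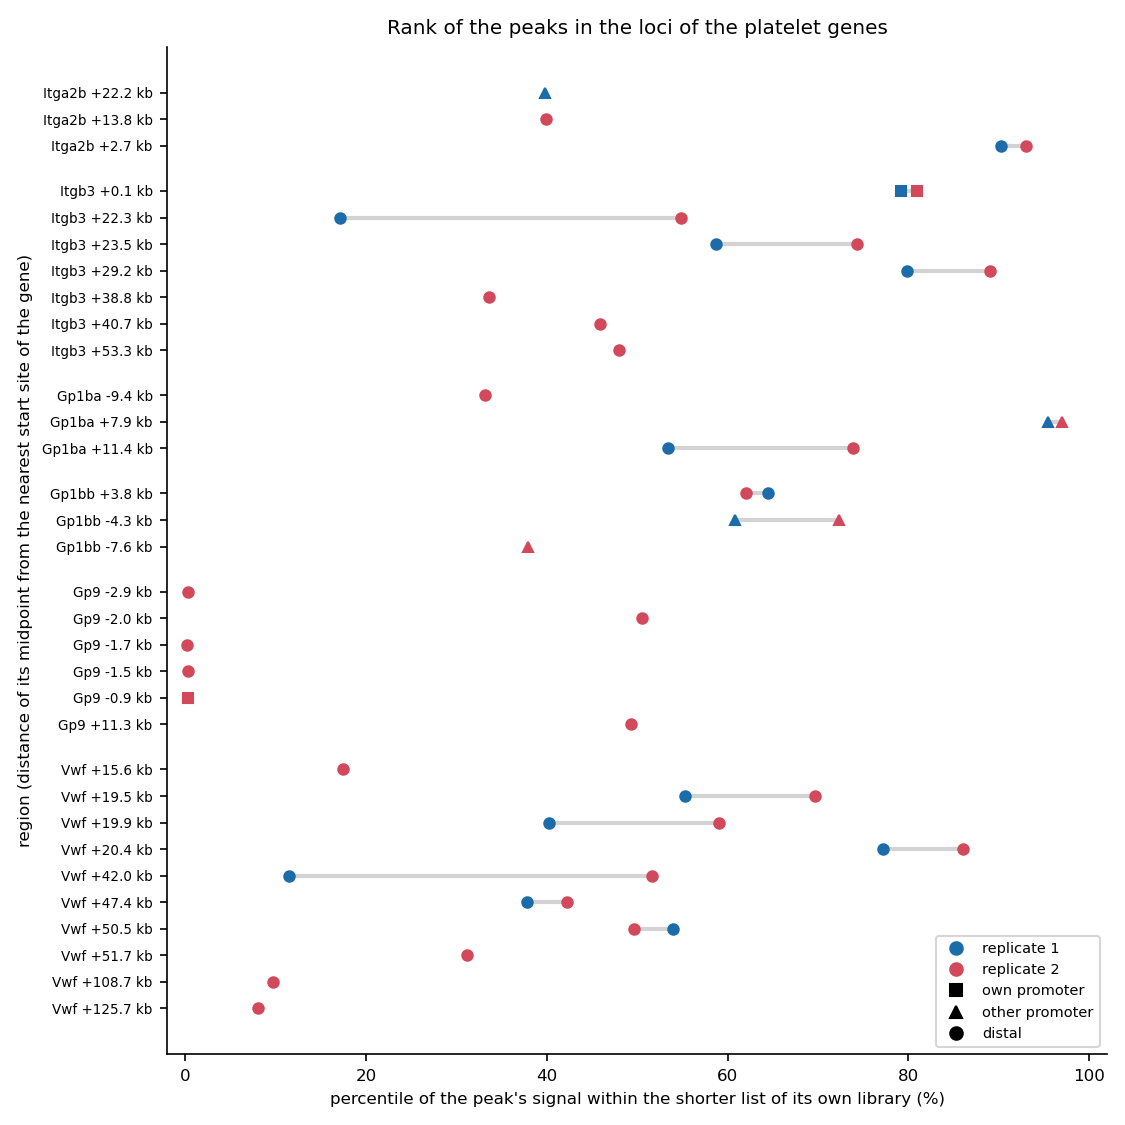
Percentile of each locus peak by signal within the shorter list of its own library (horizontal axis, %), for the 32 regions of 6 of the genes (rows, with the distance of the midpoint from the nearest start site in kb); Pf4 has none. Squares are own promoters, triangles promoters of other genes and circles distal regions, and a grey line joins both libraries: the pairs with the highest percentiles are the Slc25a11 and Rnf167 promoter near Gp1ba and the Itga2b intron, and 4 Gp9 points lie close to 0.

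Promoter sequence before the start site was taken from the RefSeq promoter table, which held 5 of the 7 genes. The 250 bases before the start are shown on the strand of each gene for a pair of genes whose weak replicate 2 peaks touched them and for a pair whose promoters matched GATA or ETS letters. For Itga2b (chr11:102469884-102470133, minus strand) and Pf4 (chr5:90772185-90772434, plus strand), capitals mark the part under the peak of the longer list of replicate 2. For Gp9 (chr6:87777820-87778069, plus strand) and Gp1ba (chr11:70638872-70639121, plus strand), capitals mark matches on either strand to the GATA letters GATAA or to the ETS letters CCGGAAG and CAGGAAG.
Itga2b: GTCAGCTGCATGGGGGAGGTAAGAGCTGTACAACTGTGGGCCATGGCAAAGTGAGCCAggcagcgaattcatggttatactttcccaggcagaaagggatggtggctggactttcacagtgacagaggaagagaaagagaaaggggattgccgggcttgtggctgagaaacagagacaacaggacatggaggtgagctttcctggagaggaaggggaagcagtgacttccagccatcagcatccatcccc
Pf4: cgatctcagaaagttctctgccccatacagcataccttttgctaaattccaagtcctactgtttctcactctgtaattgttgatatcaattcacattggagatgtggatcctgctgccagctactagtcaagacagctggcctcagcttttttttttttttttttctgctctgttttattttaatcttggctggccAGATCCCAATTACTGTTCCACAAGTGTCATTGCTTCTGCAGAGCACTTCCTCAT
Gp9: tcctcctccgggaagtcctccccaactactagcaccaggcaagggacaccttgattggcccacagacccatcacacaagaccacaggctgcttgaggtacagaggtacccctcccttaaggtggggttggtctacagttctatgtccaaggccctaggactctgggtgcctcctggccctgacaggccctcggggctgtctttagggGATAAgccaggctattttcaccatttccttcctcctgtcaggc
Gp1ba: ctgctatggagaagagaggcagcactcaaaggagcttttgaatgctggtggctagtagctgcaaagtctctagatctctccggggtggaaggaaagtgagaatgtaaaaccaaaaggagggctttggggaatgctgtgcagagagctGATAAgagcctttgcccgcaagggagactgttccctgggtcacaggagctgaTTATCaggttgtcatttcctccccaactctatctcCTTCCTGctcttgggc

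Motifs were searched as exact letters on both strands, and a match is a description and not a binding site. In the 300-base windows of the promoter table, which add 50 bases after the start, GATAA was found in 3 of the 5 genes and in 25.4% of all 32851 promoters. The matches lay 39 to 43 bases before the RefSeq start of Gp9, 99 to 103 and 47 to 51 bases before that of Gp1ba, and 38 to 42 bases after that of Pf4. ETS letters (CCGGAAG or CAGGAAG) were in 1 of 5, Gp1ba, against 20.9%. RUNX letters (TGTGGT) were in 1 of 5, Gp9, against 16.8%, and NF-E2 or AP-1 letters (TGANTCA) in 1 of 5, Gp1bb, against 7.81%. The SP and KLF letters (CCACCC) were in 3 of 5, against 31.5%, and the E-box CAGNTG in 3 of 5, against 51.4%. With 5 promoters, each of these counts is 1 to 3 genes, too few to set apart from the shares over all promoters.

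The distal regions of both libraries, 12 in all, were searched in their central 200 bases. GATAA was in 2 of them, TGTGGT in 3, TGANTCA in 2 and the ETS letters in 0. Over all distal peaks the shares were 17.0% and 19.2% for GATAA, 20.7% and 21.6% for TGTGGT, 6.40% and 7.23% for TGANTCA, and 19.7% and 21.3% for the ETS letters, in replicates 1 and 2. The Gp1ba region in the Rnf167 intron held 2 GATAA matches and 1 TGTGGT match, and also the CArG box, the serum response factor letters, found in 0.944% and 0.962% of all distal peaks. The SP and KLF letters CCACCC were in 3 of the 12, against 22.0% and 22.8%, and the E-box CAGNTG in 5, against 52.0% and 52.9%. In the Vwf region, TGANTCA matched at 125573439 to 125573445, outside the footprints of both libraries.

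Footprints gave these regions a finer structure. The loci's peaks of the shorter lists, 16 and 31, held 47 footprints in replicate 1 and 87 in replicate 2. Over all peaks of these lists there were 2.49 and 2.85 footprints per peak. Over all regions of either list there were 61 and 118, of which 41 and 37 overlapped a footprint of the other library over at least 50% of the shorter one. In the Itga2b intron, 4 footprints in replicate 1 and 3 in replicate 2 were found, and the central one, 42 bases wide in replicate 1 and 37 in replicate 2, covered the same stretch. In the Itgb3 region, a footprint of 25 bases in replicate 1 and 27 in replicate 2 covered the TGTGGT match on the minus strand at 104637315 to 104637320. In replicate 2 this footprint lay outside the called peak, which ended at 104637260. It fell in the region merged with the wider peak of replicate 1, where all 320 bases were in listed cut rate stretches of replicate 2. The TGTGGT match was the 1 RUNX match of the 61 footprints in replicate 1, and replicate 2 had 4 among its 118, against 1.67% and 1.96% of all footprints. GATAA matches, within 5 bases of a footprint, numbered 0 in replicate 1 and 2 in replicate 2, against 0.970% and 1.60% of all footprints.

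**Figure D3:**
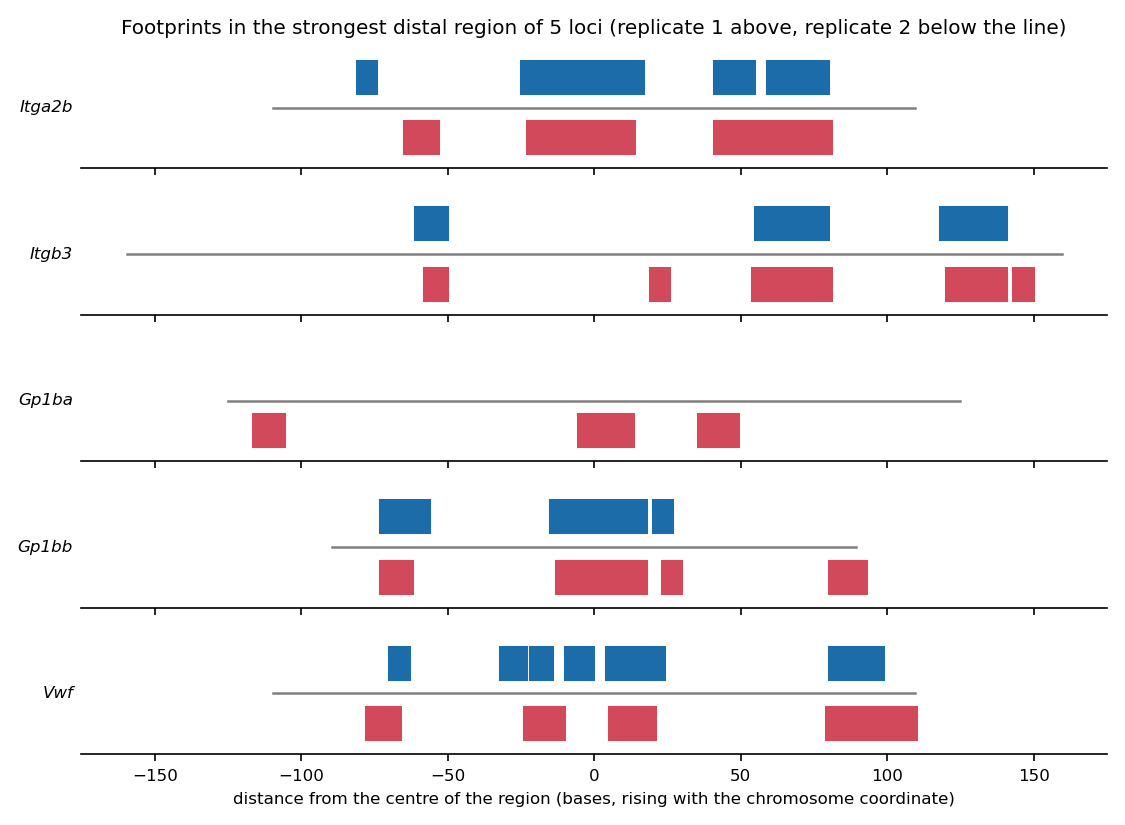
Footprints in the strongest distal region of 5 loci against the distance in bases from the centre of the region, with replicate 1 as blue boxes above the line and replicate 2 as red boxes below it; the line is the extent of the region. Boxes overlap between libraries for Itga2b, Itgb3, Gp1bb and Vwf, whereas Gp1ba has 3 boxes in replicate 2 and 0 in replicate 1.

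Another 3 sets of letters were added after the region sequences had been seen, and their counts support nothing by themselves. The GC box (GGGCGG), to which SP and KLF factors bind, occurred 3 times in the Itga2b intron, each time within 5 bases of a footprint of both libraries, and in 2 of the 12 distal regions, against 13.5% and 11.9% of all distal peaks. The CCAAT box, the letters bound by NF-Y, lay within 5 bases of footprints of both libraries at 125573384 to 125573388 and, on the minus strand, at 125573421 to 125573425 of the Vwf region. It was in 1 of the 12 distal regions, against 20.2% and 19.2% of all distal peaks. A CTCF core (CAGNGGGC) lay in the central footprint of the Gp1bb region in both libraries, on the minus strand at 18617852 to 18617859, and was in 5 of the 12 regions, against 13.7% and 10.6% of all distal peaks. The longer CTCF consensus, which was among the first set, was in 1 of the 12 distal regions, against 27.7% and 19.5%. It lay within 5 bases of footprints of both libraries at the Sept5 intron region near Gp1bb. The same held for regions in Itgb3 intron 10 and Vwf intron 38, which were in the longer list only in replicate 1.

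The wider platelet programme was read from a further 42 genes. Replicate 1 had a peak at the promoters of 22 and replicate 2 at those of 25. The mean share was 56.0% ± 5.05 (SD, n = 2), near the background of 53.9% and 57.4%. With the longer lists 26 and 31 had one, a mean share of 67.9% ± 8.42 (SD, n = 2), against 57.9% and 62.4% of all genes. Without the 12 transcription factor genes, 14 and 15 of 30 had a peak, a mean share of 48.3% ± 2.36 (SD, n = 2). Of those 30 genes, 22 were CpG-poor. Receptor genes had 5 of 14 in each library, or 35.7%. Of these 14 genes 12 were CpG-poor, the class with a background of 23.1% and 27.4%. The 5 with a peak include Cd9 and P2ry1, which are not CpG-poor, so 35.7% is not a like measure to that background. Cd9, a tetraspanin, Itga2, a collagen receptor chain, P2ry1, an ADP receptor, and Tbxa2r, the thromboxane receptor, had a peak in both libraries. The thrombin receptor gene F2rl3 had one in replicate 1 alone, at the percentile 7.5, and the ATP-gated channel gene P2rx1 had one in replicate 2 alone, at 26.9. In the longer lists F2rl3 had one in both libraries, and P2rx1 still had one in replicate 2 alone. Clec1b, F2rl2, Gp5, Gp6 and P2ry12 were among those without, where Gp6 encodes a collagen receptor.

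Among 8 genes of granule and secreted proteins, of which 5 were CpG-poor, a promoter peak was found at 3 in replicate 1 and at 4 in replicate 2. Nbeal2, needed to form alpha granules, had percentiles of 92.1 and 95.5, Tgfb1 of 84.2 and 91.2 and Thbs1, which encodes thrombospondin, of 55.3 and 59.9. In the shorter lists Pdgfb had a peak in replicate 2 alone, and F13a1 and F5, which encode coagulation factors, Mmrn1 and Ppbp had none. The longer lists also held one for Pdgfb in replicate 1 and one for F13a1 in replicate 2. Of 8 signalling and cytoskeleton genes, likewise with 5 CpG-poor, Fermt3, Plek, Rab27b, Rasgrp2, Slc35d3 and Tln1 had a peak in both libraries. Rasgrp2 reached the percentiles 93.1 and 97.3, but this group holds genes used by many leukocytes, such as Fermt3 and Plek. Myl9, a myosin light chain gene, was 1 of 2 in this group without a promoter peak in the shorter lists, and had one in the longer list of replicate 2.

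The genes of transcription factors, 5 of 12 CpG-poor, had promoter peaks at 8 of 12 in replicate 1 and 10 of 12 in replicate 2. Zfpm1, which encodes the GATA1 partner FOG1, had signals of 15.1 and 21.2, at the percentiles 99.6 and 99.4. Runx1 had 4.10 and 6.73, Lyl1 3.59 and 5.69, Gfi1b 2.39 and 5.19, and Meis1 2.14 and 3.66. Fli1 had 1.61 and 1.97, Nfe2 1.76 and 2.36, and Tal1 1.32 and 1.24. All 8 of these genes also act in other blood lineages. Gata1 and Erg had a peak in replicate 2 alone, with signals of 1.04 and 0.354, and Gata2 and Mecom had none in the shorter lists. In the longer lists Gata1 and Gata2 had one in both libraries, Erg in replicate 2 alone and Mecom in neither.

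Marker genes of other cells of the spleen, 6 for each type, were counted in the same way. For B cells, all 6 promoters had a peak in each library. T cell genes had 4 and 5, erythroid genes 4 and 6, stem and progenitor genes 4 and 5, endothelial genes 2 and 3, and macrophage and monocyte genes 1 and 3. In these shorter lists the 7 platelet genes, at 1 and 2, stood beside the last of these. With the longer lists they had 1 and 4, macrophage and monocyte genes 4 and 4, and endothelial genes 2 and 4. There, T cell genes and stem and progenitor genes each had 4 and 6, and B cell and erythroid genes each 6 and 6. With 6 or 7 genes to a list no order among them can be read. The B cell, T cell, erythroid and endothelial lists each had 5 CpG-poor genes of 6, the macrophage and monocyte list 6 and the stem and progenitor list 3, as against 5 of 7 here. The part of other cell types in the peaks of the 7 loci was not tested.

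**Figure D4:**
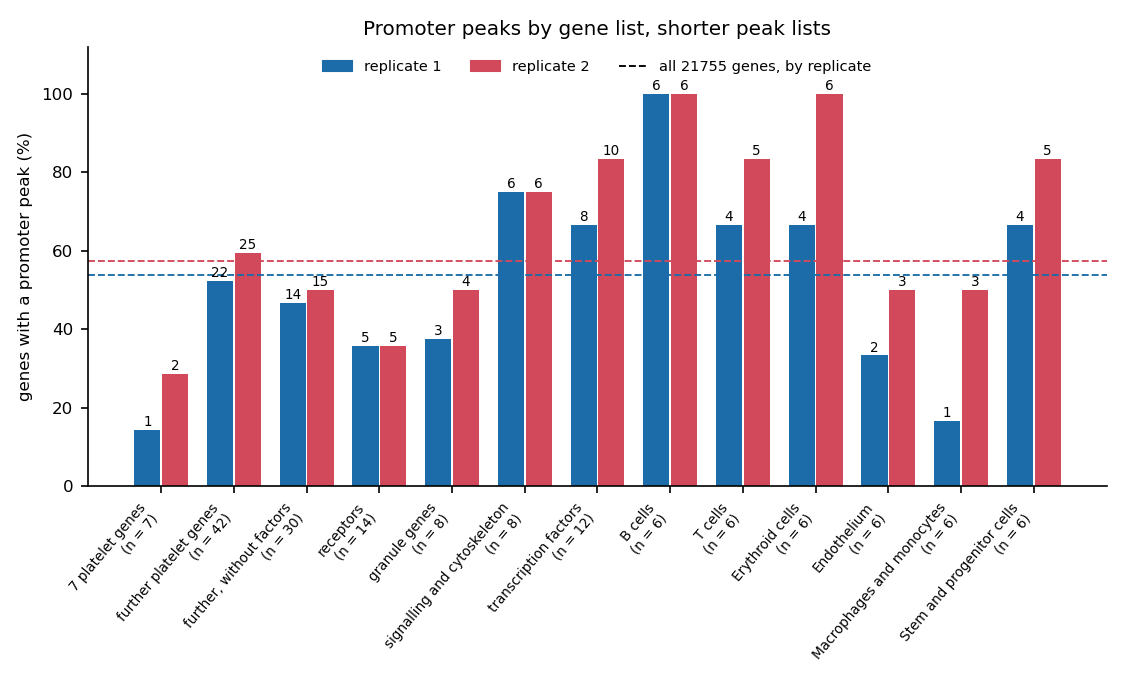
Share of genes with a promoter peak in the shorter list (vertical axis, %) for the 7 platelet genes, for the further 42 and their groups by role, and for markers of other cell types, with replicate 1 in blue and replicate 2 in red; digits over the bars count genes. Dashed lines give the share over all 21755 genes, 53.9% and 57.4%. Under them in both libraries lie the 7 platelet genes, receptor, granule, endothelial and macrophage genes, and the further genes without factors. Transcription factor, signalling, B cell, T cell, erythroid, and stem and progenitor genes lie above them in both. The further 42 lie under the line in replicate 1 and above it in replicate 2. Over CpG-poor genes the share was 23.1% and 27.4%.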

How the data were processed

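DNase-seq peaks, footprints and cut rates of 2 spleen libraries were used. Each library's own alignments on mm10, not pooled, gave its peaks and cut rate, per the deposited readme. Its aligner and callers were not given in the sources used here. Peaks come with the authors' signal in the deposited lists. The deposited cut rate and footprint files carry a q-value (FDR), of at most 0.05 and, as a threshold, 0.01. Total depth is unknown.

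From these, peaks were assigned to promoters and loci with Python 3.11.15, numpy 2.4.6 and pandas 2.3.3, and figures drawn with matplotlib 3.10.9. A shared peak overlapped by at least 1 base. Assignment and motif search were tested on simulated data. Sequence and promoter windows are from RefSeq, GRCm38.p6. The libraries form 1 group, so values are given per library or as mean ± SD, with no test. The 7 genes and all lists were chosen with earlier results of these data known. Named were all 7 genes, genes with promoters in their loci and, of the further 42, those with a promoter peak, all factor genes and the first 12 without one in alphabetical order, besides markers; 1 gene so selected is not reported here. Alternatives varied the peak list, window widths, overlap and libraries used.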

Additional observations from a re-analysis of the deposited data

How the results depend on the processing

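No paired analysis was possible because the libraries form 1 group. Of 29 alternative values for 6 counts, each a mean over both libraries, 17 stayed within 1.5 times the value reported and 12 did not. With the longer lists, genes with an own promoter peak numbered 2.5 in place of 1.5, locus peaks 35.5 in place of 23.5 and shared ones 27 in place of 15. With only the 21227 strongest peaks of each library, locus peaks numbered 10, shared ones 9, footprints in them 36 in place of 67, and further platelet genes with a promoter peak 15 in place of 23.5. Without the flank there were 15 locus peaks and 43.5 footprints, and with a flank of 50 kb there were 58 locus peaks, 44 shared ones and 166.5 footprints. With each library limited to 42454 peaks, locus peaks still numbered 16 and 24, and the Gp9 promoter peak was lost, as it was with 500 bases to either side of the start. Leaving out a replicate gave 1 to 2 genes with an own promoter peak, 16 to 31 locus peaks, 15 to 15 shared, 47 to 87 footprints, 22 to 25 further platelet genes and 1 to 4 promoters with a listed cut rate stretch, so the last count rests on replicate 2. The windows for that stretch were varied after the data were seen. The cause of these shifts was not tested, and the unknown depth limits what the absence of a peak shows.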
